A study of Homo sapiens with 23 samples.

Results

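The 7 genes of the FOS and JUN families, FOSL1, FOS, FOSB, FOSL2, JUN, JUNB and JUND, were examined for the chromatin around their start sites in NCI-H23 cells, a line established from a human non-small cell lung cancer. The genes were chosen by name, and each was placed by a given start site in build hg19. All deposited chromatin immunoprecipitation and sequencing (ChIP-seq) peaks within 1 kb of a start were collected, together with BRD2 and acetylation peaks within 50 kb. The lists carry no gene names, so the 7 starts are set against the 20850 H3K4me3 regions of the genome that were called in both H3K4me3 lists. BRD2 and 10 histone modifications were each profiled in 2 libraries from the same line, giving 22 lists and 2889028 peaks. H4K5acK8ac is histone H4 acetylated at both lysine 5 and lysine 8 and was detected with a mouse monoclonal antibody. Single acetylations were profiled as H4K5ac, H4K8ac, H4K12ac and H3K27ac. Methylations were profiled as H3K4me1, H3K4me3, H3K36me3, H3K9me3 and H3K27me3. The labels mention treatment with the BET inhibitor JQ1 or its solvent DMSO but assign no library to either, and they do not say whether the 2 libraries of a target came from separate cultures. A difference between libraries may therefore be technical or may follow treatment, and these cannot be told apart.

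AP-1 is a dimeric transcription factor built from leucine zipper proteins of the FOS and JUN families. FOS proteins need a JUN partner to bind DNA, while JUN proteins can also pair with one another, and the dimers bind the TPA response element TGANTCA or the related cAMP response element TGACGTCA. FOS, FOSB, JUN and JUNB are classical immediate early genes, switched on within minutes by growth factors and stress. FOSL1 encodes FRA-1, an AP-1 subunit often abundant in epithelial tumours and known as a BET inhibitor-responsive gene in lung adenocarcinoma lines, and FOSL2 encodes the related FRA-2. JUND is usually expressed more evenly across resting and growing cells. BRD2 is a BET protein whose bromodomains bind acetylated lysines, with a preference for acetylated histone H4. H3K4me3 and H3K27ac mark active starts, H3K4me1 with H3K27ac marks enhancers, H3K36me3 marks transcribed gene bodies, and H3K27me3 and H3K9me3 mark repressed chromatin.

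The RefSeq promoter table of assembly GRCh38.p14 held 6 of the 7 genes by symbol. Their last 100 bases before the table's start are shown because 4 of them hold a core or variant of the cAMP element there at nearly the same distance. For comparison, JUNB had neither in these bases, and JUND had a core farther from the start. Capitals mark every match, on either strand, to the AP-1 element TGANTCA, to the cAMP element TGACGTCA or its variant TGACATCA, to the shorter core TGACGT, to the TATA box TATAAA, to the CAAT box CCAAT or to the CArG box.
FOS, chr14:75278728-75278827, plus strand: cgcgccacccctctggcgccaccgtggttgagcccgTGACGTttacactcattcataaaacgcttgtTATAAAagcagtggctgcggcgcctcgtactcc
FOSB, chr19:45467896-45467995, plus strand: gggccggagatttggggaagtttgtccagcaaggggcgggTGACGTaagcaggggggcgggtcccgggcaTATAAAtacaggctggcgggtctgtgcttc
FOSL2, chr2:28392758-28392857, plus strand: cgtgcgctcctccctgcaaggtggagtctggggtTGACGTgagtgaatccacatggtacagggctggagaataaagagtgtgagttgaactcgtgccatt
JUN, chr1:58784048-58784147, minus strand: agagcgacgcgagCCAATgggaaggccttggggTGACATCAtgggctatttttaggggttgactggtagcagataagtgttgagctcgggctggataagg
JUNB, chr19:12791386-12791485, plus strand: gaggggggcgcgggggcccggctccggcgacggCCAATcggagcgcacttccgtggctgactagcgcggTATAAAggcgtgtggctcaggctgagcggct
JUND, chr19:18281623-18281722, minus strand: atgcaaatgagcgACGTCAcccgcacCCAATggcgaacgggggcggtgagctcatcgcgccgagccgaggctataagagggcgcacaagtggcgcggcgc

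TGACGT, the 6-base core contained in the full element TGACGTCA, lay at -64 to -59 in FOS, at -60 to -55 in FOSB and at -66 to -61 in FOSL2. JUN carried TGACATCA at -67 to -60. These are the 4 genes with aligned elements. JUND had a full TGACGTCA at -200 to -193, outside the printed stretch, and a further core on the opposite strand at -87 to -82. In the table's window of 250 bases before and 50 bases after the start, TGACGT occurred in 4 of the 6 genes and in 7.98% of all 35116 promoters. This core was added to the search after these sequences were seen, so the 2 shares are a description only. TGACGTCA occurred in 1.85% of promoters and TGACATCA in 2.61%. The TPA response element was found only in FOSL2 among these 6, at 5 to 11 after the start, and in 7.71% of promoters. TATAAA lay at -33 to -28 in FOS, -30 to -25 in FOSB and -31 to -26 in JUNB, against 11.5% of promoters. CCAAT occurred in JUN, JUNB and JUND and in 34.6% of promoters. The GC-rich sequence GGGCGG, which is not capitalised, was in 5 of the 6 genes and in 45% of promoters. The CArG box, the element bound by serum response factor, was in none of the 6 within this window and in 1.29% of promoters. Sequence farther upstream was not searched.

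The lists hold no read numbers, so depth is unknown. Signal strength differed between libraries of a target: peaks with a −log10 q of 5 or more numbered 4771 and 12491 for BRD2 replicates 1 and 2, and 37399 and 6838 for H4K8ac. Fold enrichment is the authors' value for each peak relative to their peak caller's background, and it was ranked only within a list. A percentile below is the rank of a peak among all peaks of the same list by fold enrichment, with tied peaks at their middle rank. Where several peaks lay within 1 kb of a start, the strongest was used.

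All 7 starts carried the marks of active promoters, and none carried a repressive mark. H3K4me3, H3K27ac, H4K5acK8ac, H4K5ac and H4K12ac were called within 1 kb of 7 of 7 starts in both lists. The shares of H3K4me3 regions, in windows around their own H3K4me3 summits and not a start, were 100% by definition, 78.2%, 85.0%, 83.1% and 78.3%. A peak at each start is thus also the usual state of such regions. BRD2 was called in both lists at 4 genes, FOSL1, FOSL2, JUN and JUND, against 49.5% of regions, which is close to the background. H4K8ac was called in both lists at 4 genes, FOS, FOSL2, JUN and JUND, against 53.7%, and at all 7 in replicate 1. H3K4me1 was called in both lists at 4 genes, FOSL1, FOSB, JUNB and JUND, against 79.5%. H3K36me3, H3K9me3 and H3K27me3 were called at 0 of 7 starts in either list. Of the H3K4me3 regions, 10.2%, 3.78% and 9.52% had these marks in both lists, 84.9%, 93.6% and 84.6% had them in neither, and 67.4% had none of the 3 in either list. H3K27me3 or H3K9me3 in both lists, at 0 of 7 genes, was found at 11.7% of regions. The absence of these marks is thus the usual state as well. JUND had 8 of the 11 targets in both lists, FOSL1, FOSL2 and JUN had 7, and FOS, FOSB and JUNB had 6. When the summit and not only an edge had to lie within 1 kb, FOSB and JUNB had 2 each and FOSL2 had 4, so at these genes many of the peaks were centred farther out.

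**Figure D1:**
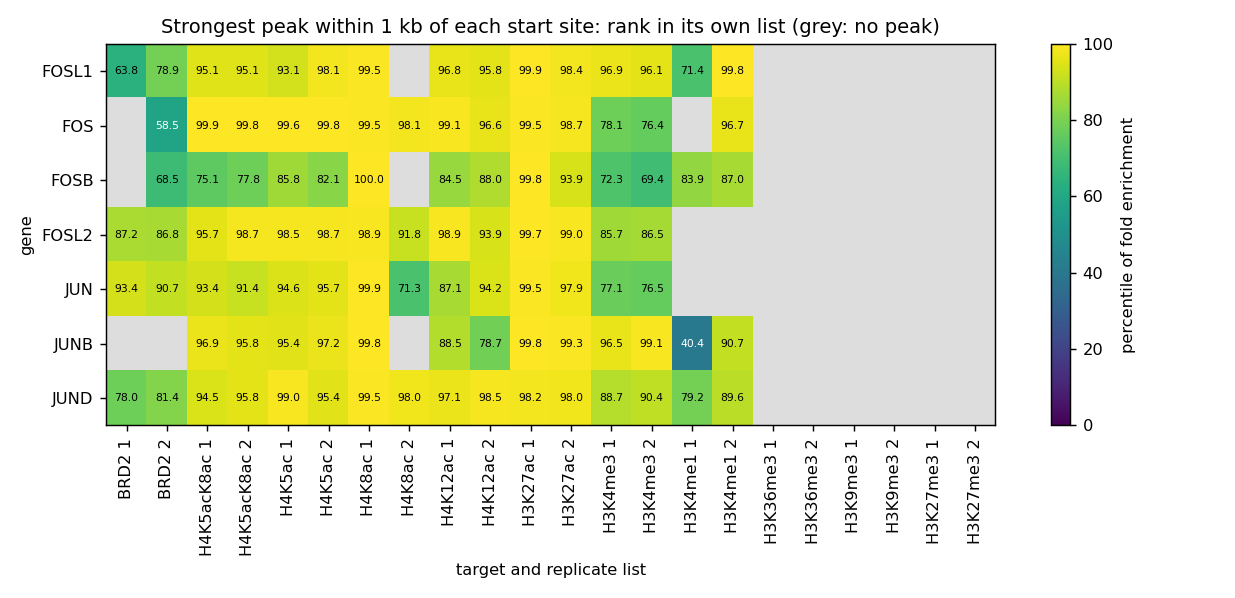
Percentile, by fold enrichment, of the strongest peak within 1 kb of each start among all peaks of its own list, with genes in rows and the 22 lists in columns; grey cells had no peak. H3K27ac is at percentile 93.9 or above for every gene, while BRD2 is grey for JUNB in both lists and for FOS and FOSB in replicate 1, and the last 3 targets are grey throughout.

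In bp and fold enrichment, the H3K4me3 peaks at the starts differed relatively more in width than in height. By percentile they differed less in width. Width percentiles ran from 90.1 to 99.8 and from 90.2 to 99.8, and height percentiles from 72.3 to 96.9 and from 69.4 to 99.1. Fold enrichment of these peaks lay between 84.5 at FOSB and 106 at FOSL1 in replicate 1, and between 90.6 at FOSB and 120 at JUNB in replicate 2. This placed FOSB at percentiles 72.3 and 69.4 and JUNB at 96.5 and 99.1. FOSL2 had the widest, at 8978 and 8987 bp, at percentile 99.8 of width in both lists. JUNB followed with 6833 and 7075 bp, JUN with 6453 and 6379 bp and FOS with 5371 and 6161 bp. The H3K4me3 peak of JUND spanned 3662 and 5006 bp, that of FOSL1 3602 and 4559 bp and that of FOSB 3498 and 3434 bp. The order of width was the same in both lists at its upper and lower ends, with FOSL2, JUNB and JUN widest and FOSB narrowest.

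H3K27ac, a mark of active starts and enhancers, was among the strongest of its list at every gene, between percentiles 93.9 and 99.9. FOSL1 had a fold enrichment of 86.5 in replicate 1 and 57.9 in replicate 2. JUNB had 84.1 and 65.4, FOSL2 79.9 and 62.6, JUN 75.7 and 55.2, and FOS 74.9 and 60.5. JUND was the lowest in replicate 1 with 59.1 and had 55.7 in replicate 2, whereas FOSB had 82.0 in replicate 1 and was the lowest in replicate 2 with 37.2. The order of the genes by H3K27ac height therefore changed between the libraries. The summits lay at -640 and 978 bp for JUND and at -144 and 1079 bp for FOSB. For these 2 genes the heights were thus not read at the same site. The order by width kept its ends: FOSL2 was widest with 12719 and 12618 bp, followed by FOSL1 with 9521 and 10226 bp and JUNB with 9070 and 9417 bp, and FOSB had 4179 and 3581 bp.

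The doubly acetylated H4 tail separated the FOS family. FOS, the founding member of the family, had the strongest H4K5acK8ac peak in both lists, with fold enrichments of 64.9 and 53.2 at percentiles 99.9 and 99.8. FOSB, its closest relative and also an immediate early gene, had the weakest in both lists, with 8.94 and 10.4 at percentiles 75.1 and 77.8. The FOS summits lay at -90 and -121 bp. Those of FOSB lay at 1123 bp, outside the window, in replicate 1 and at -577 bp in replicate 2. The FOSB values thus come from different flanking peaks and not from 1 peak at the start. FOSL2 had 30.2 and 39.1, and FOSL1 had 28.8 and 27.2. Among the JUN genes, JUNB had 33.7 and 28.7, JUND 27.3 and 28.5, and JUN 25.2 and 21.1. Between FOS and FOSB, JUNB and FOSL2 changed places between the lists, as did FOSL1 and JUND, while JUN was next to last in both. The JUNB and FOSL2 peaks reached into the window but were centred outside it in both lists. Their summits lay 2.539 and 2.557 kb after the JUNB start and 2.748 and 2.172 kb upstream of FOSL2. The H3K27ac summits of JUNB were likewise 2.556 and 2.731 kb after its start.

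Single acetylations gave a like picture at the ends of the order for H4K5ac, and a less regular one for the other 2 sites. FOS had the highest H4K5ac fold enrichment, 20.0 and 21.9, and FOSB the lowest, 6.03 and 5.28. The FOSB H4K5ac summits lay 1135 and 1080 bp after the start, outside the window, though replicate 2 had an equal peak at -516 bp. The FOSB H4K12ac summits lay outside as well, at 1075 and 1140 bp. For H4K12ac, FOS was highest in replicate 1 with 10.6 and had 8.37 in replicate 2, where JUND was highest with 10.2. FOSB had 4.45 and 5.28 and JUNB 5.07 and 4.16, so the lowest H4K12ac peak was at FOSB in one list and at JUNB in the other. H4K8ac ran from 8.20 at FOSL2 to 13.8 at FOSB in replicate 1, with all 7 peaks above percentile 98.9. In replicate 2 no H4K8ac peak was called within 1 kb of FOSL1, FOSB or JUNB, and FOS had 5.82, JUND 5.75, FOSL2 4.52 and JUN 3.59. FOSB was thus the highest gene in one H4K8ac list and uncalled in the other, whose strong peaks were far fewer. With both lists, 4 of 7 genes had all 5 acetylations and H3K4me3, against 49.4% of regions, and without H4K8ac replicate 2 the count was 7.

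**Figure D2:**
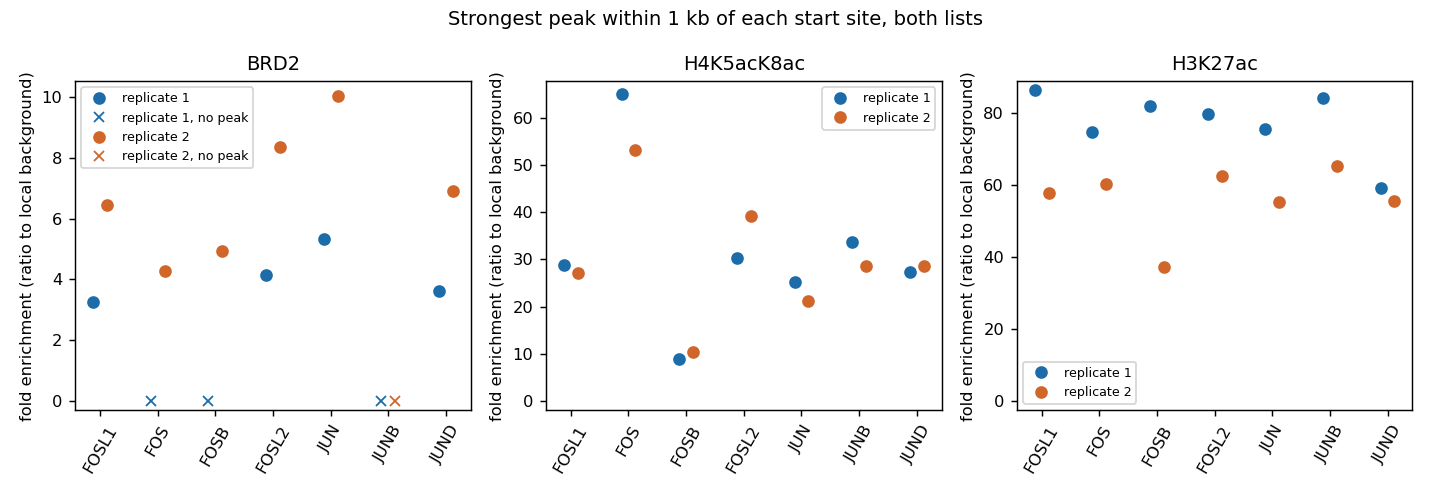
Fold enrichment of the strongest peak within 1 kb of each start for BRD2, H4K5acK8ac and H3K27ac, on linear axes that differ between panels, with 1 point per library and a cross at 0 where no peak was called. H4K5acK8ac is highest at FOS and lowest at FOSB in both libraries, while BRD2 is highest at JUN.

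BRD2 itself followed another order. JUN, which encodes c-Jun, had the strongest BRD2 peak within 1 kb in both lists, with fold enrichments of 5.34 and 10.0 and −log10 q of 6.66 and 16.3. FOSL2 had 4.15 and 8.36, with −log10 q of 3.05 and 11.4. JUND had 3.61 and 6.89, with −log10 q of 1.66 and 7.76. FOSL1 had 3.25 and 6.44, with −log10 q of 1.06 and 7.73, so its peak in replicate 1 had a q of 0.0877 and a fold enrichment shared with 4439 peaks of that list. Both lists put these genes in the order JUN, FOSL2, JUND, FOSL1 with the 1 kb window around the start. As percentiles averaged over both lists, JUN stood at 92.0 ± 1.86 (SD, n = 2), FOSL2 at 87.0 ± 0.294, JUND at 79.7 ± 2.36 and FOSL1 at 71.4 ± 10.7. The gap between JUND and FOSL1 was smaller than the SD of FOSL1. For FOSL2 and JUND the lists contributed different peaks, with summits at 202 and -458 bp and at 1027 and -515 bp. Their SDs therefore do not measure how well the libraries matched at a site. Ranked by region called in both lists, FOSL2 stood at 85.4 and the JUND regions at 69.6 and 67.6, below FOSL1. The order depended on the window: within 2 kb FOSL2 stood at 95.2, above JUN at 92.0, and with the summit required inside 1 kb JUND fell to 67.6, below FOSL1. Around the H3K4me3 summit the percentiles were 92.0 for JUN, 75.01 for FOSL1, 69.6 for JUND and 56.5 for FOSL2. Ranked only among BRD2 peaks that overlap H3K4me3, all 4 stood lower, in the order of the 1 kb window. JUN was at 79.4, FOSL2 at 66.5, JUND at 54.4 and FOSL1 at 45.5. With the 1 kb window, the order did not follow that of H4K5acK8ac, in which JUN stood lowest of these 4. The H4K5acK8ac peaks counted for FOSL2 had summits 2.748 and 2.172 kb upstream, outside that window, so the FOSL2 values compare different places.

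The other 3 genes had no BRD2 peak called in both lists. FOS, with the strongest H4K5acK8ac, had none within 1 kb in replicate 1, where the nearest was 11258 bp away, and a peak of fold enrichment 4.29 with its summit 117 bp after the start in replicate 2. FOSB had none in replicate 1, where the nearest was 11747 bp away, and in replicate 2 a peak of 4.92 that only reached into the window, beginning 964 bp from the start. JUNB had none in either list, as did 30.7% of H3K4me3 regions. Its nearest BRD2 peak in replicate 2 lay 1018 bp from the start, just outside the window, with a fold enrichment of 5.25, and in replicate 1 2412 bp away with 5.05. FOSB and JUNB thus fall on either side of the 1 kb limit by under 50 bp in replicate 2. With peaks limited to a −log10 q of 5 or more, 1 gene, JUN, had a BRD2 peak in both lists. Most H3K4me3 regions with H4K5acK8ac at least as strong as at FOS in both lists did have BRD2 in both, 59 of 65 or 90.8%. FOS, called for BRD2 in 1 list, fell in the remainder, with this limit chosen after the values were seen.

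The position of BRD2 relative to the start differed between genes. At FOSL1 (start chr11:65667997, minus strand) the BRD2 summits lay 678 and 855 bp downstream, inside the gene, and 98 and 4 bp from the nearest H4K5acK8ac summit and 44 and 55 bp from the nearest H3K27ac summit of the same replicate number. At JUN (chr1:59249785, minus strand) the summits lay at -371 and -383 bp, that is upstream of the start, 51 and 43 bp from those of H3K27ac and 395 and 25 bp from those of H4K5acK8ac. At JUND (chr19:18392432, minus strand) a region with summits at -605 and -515 bp lay 35 and 95 bp from H3K27ac summits, and the strongest peak of replicate 1 was instead 1027 bp downstream. That downstream JUND region, with summits 1027 and 875 bp after the start, lay 1667 and 103 bp from H3K27ac summits. At FOSL2 the BRD2 summits 202 and 172 bp after the start were 729 and 130 bp from H3K27ac summits and 2950 and 2344 bp from H4K5acK8ac summits. There, each list held 1 wide peak of either mark that covered 100% of the 1 kb window. These distances are thus between summits and do not place BRD2 outside acetylated stretches. Summits of BRD2 and H3K27ac thus lay within 100 bp in both lists at FOSL1, at JUN and at the upstream JUND region, and not at FOSL2 or the downstream JUND region.

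FOSL1, FOSL2 and JUNB carried BRD2 beside the start as well as, or in place of, at it. FOSL1 had further regions with summits 1271 and 1354 bp after the start and at -2566 and -2853 bp. Fold enrichments were 3.41 and 6.02 in the first and 2.84 and 6.36 in the second. FOSL2 (chr2:28615779, plus strand) had a BRD2 region at chr2:28612792-28614176, with summits 2.068 and 2.189 kb upstream and fold enrichments of 5.72 and 14.02. This was stronger than its region 202 and 172 bp after the start, which had 4.15 and 7.51. From the upstream BRD2 summits, the nearest H4K5ac summits lay 35 and 30 bp away, those of H4K5acK8ac 680 and 17 bp and those of H3K27ac 1541 and 2491 bp. The strongest H4K5acK8ac summits were 2.748 and 2.172 kb upstream in peaks of 8393 and 8124 bp. JUNB (chr19:12902310, plus strand) had a region at chr19:12904532-12905220, with summits 2.568 and 2.647 kb after the start and fold enrichments of 5.05 and 5.47. JUNB is a short gene of 1830 bp in the RefSeq table, so this region lies beyond its end. The nearest H3K27ac summits were 12 and 84 bp away and those of H4K5acK8ac 29 and 90 bp, inside H4K5acK8ac peaks of 7433 and 7215 bp that reach back to the start. At FOS (chr14:75745481, plus strand) the H4K5acK8ac summits were at -90 and -121 bp, with no BRD2 peak there in replicate 1.

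**Figure D3:**
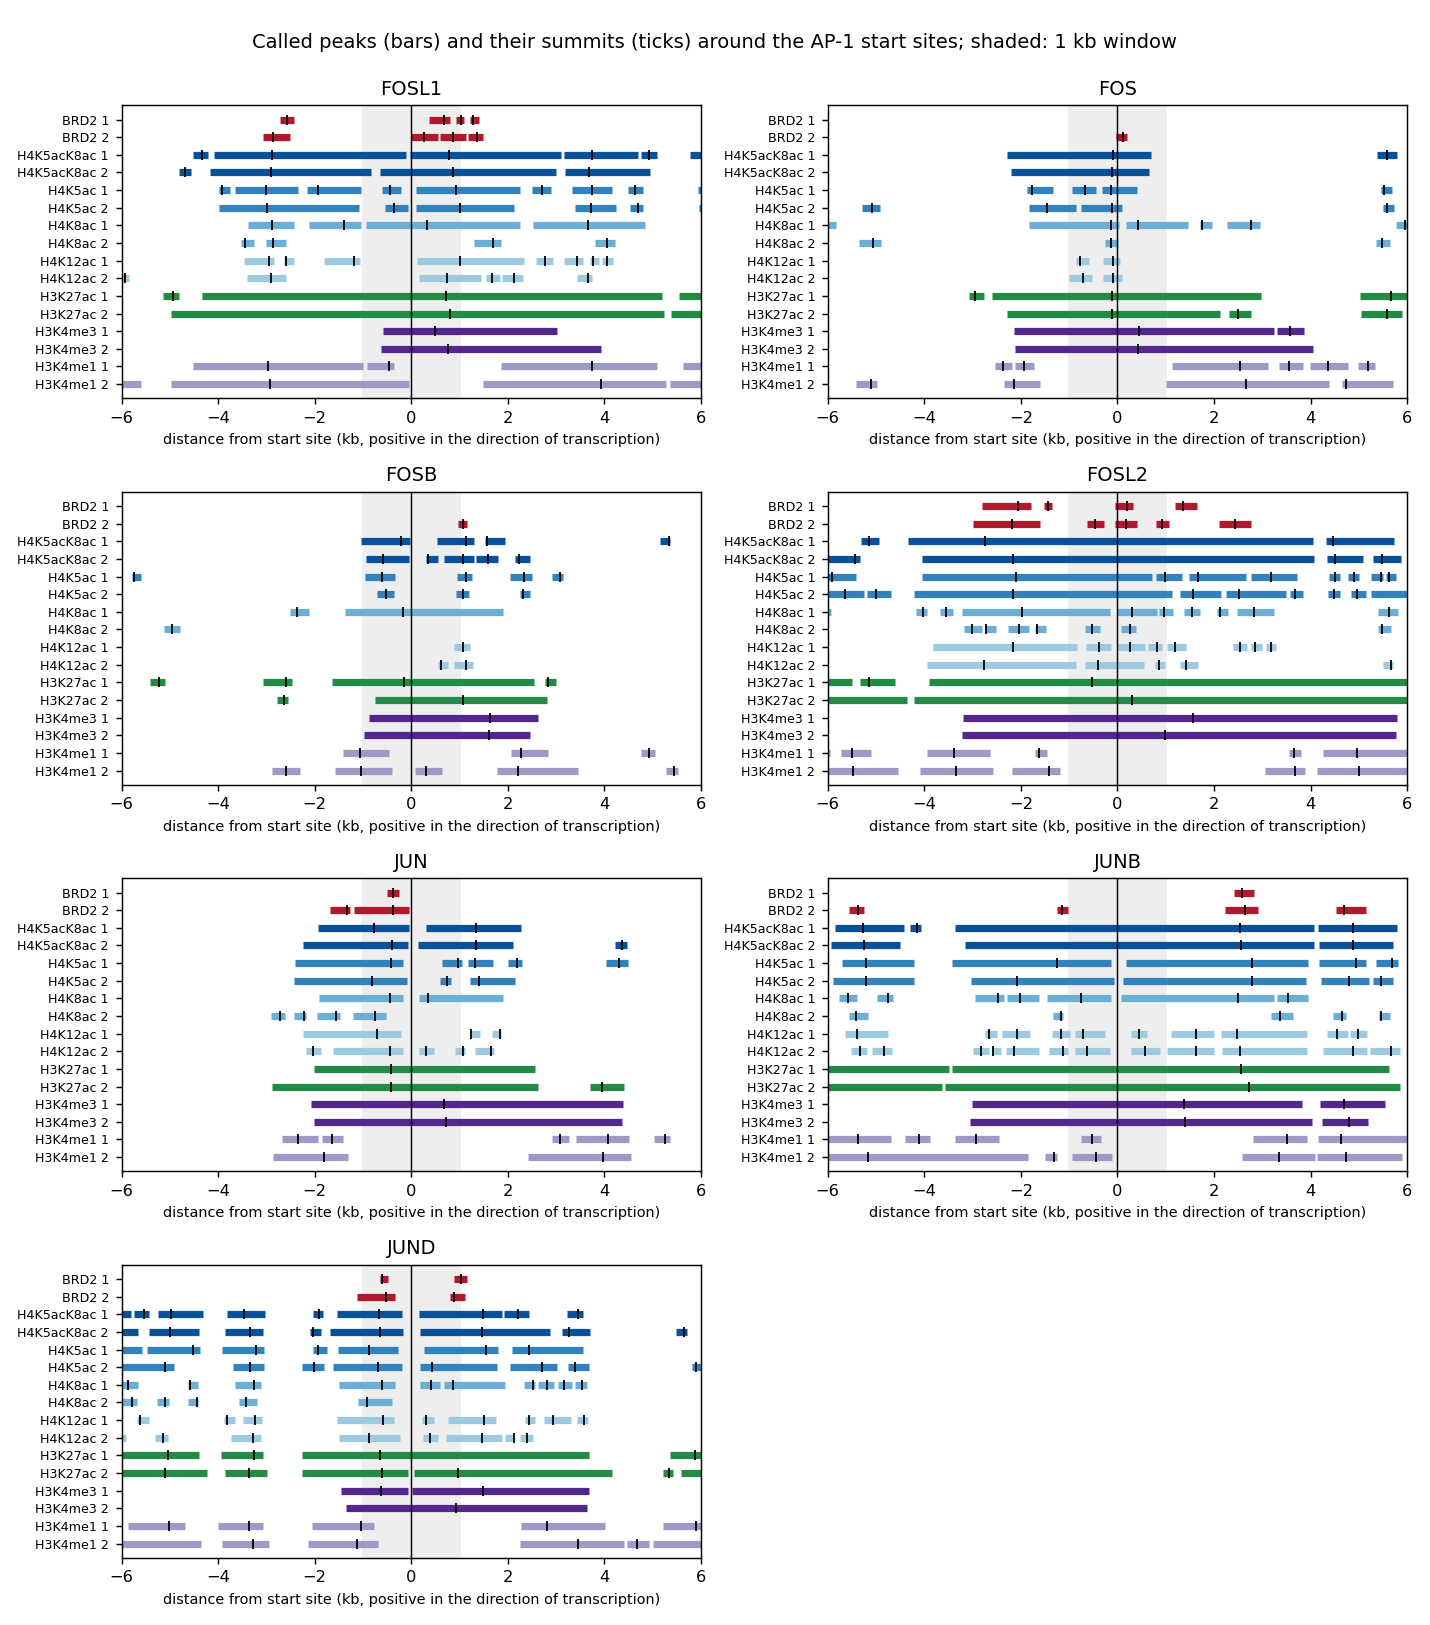
Peaks of 8 targets around each start by distance from it in kb, positive in the direction of transcription, with 1 line per list, bars for peaks, ticks for summits and shading for the 1 kb window. BRD2 lies just upstream of the JUN start, about 2 kb upstream of FOSL2 and about 2.6 kb downstream of JUNB, inside acetylated stretches.

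The methylations other than H3K4me3 differed among the genes mainly by their distance. No H3K4me1 peak came within 1 kb of FOSL2 or JUN in either list. The mark was called at FOSL1 with fold enrichments of 4.58 and 21.5, at JUNB with 3.47 and 8.84, at JUND with 5.04 and 8.48 and at FOSB with 5.53 and 7.75. At FOS it reached the window only in replicate 2, beginning 996 bp from the start with a fold enrichment of 12.3. The strong FOSL1 peak of replicate 2 had its summit 2.930 kb upstream. H3K36me3 came closest to the start of FOS, 1136 and 1132 bp away, with fold enrichments of 12.3 and 11.2. At FOSL1 the nearest H3K36me3 peaks were 1834 and 1334 bp away, and at FOSB 41424 and 42055 bp. At JUN they were 2144 bp away in replicate 1 and 85164 bp away in replicate 2, so the libraries did not give the same picture there. The nearest H3K27me3 peak to any of the 7 starts was 27993 bp away, near FOSB, and the nearest H3K9me3 peak 3325 bp away, near JUN.

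In the 50 kb on either side of the starts, 36 BRD2 regions were called in both lists. FOSL1 had 13 of them, FOSB 6, JUNB and JUND 5 each, JUN 3, and FOS and FOSL2 2 each. The H3K4me3 regions of the genome had a median of 1 such region, with quartiles of 0 and 3. Of these regions, 0.317% had at least the 13 of FOSL1, 7.18% at least the 6 of FOSB, and 45.6% at least the 2 of FOS and FOSL2. FOSL1 therefore had an unusually high count by this rule, and FOS and FOSL2 an ordinary one. Most of the FOSL1 regions were weak in replicate 1, with a −log10 q below 1.3 and as low as 0.145. Without those weak regions, the FOSL1 count would not stand above that of JUNB. The share of H3K4me3 regions at that limit was not computed. Other genes share these windows: the RefSeq table placed 10 protein-coding genes within 50 kb of FOSL1, among them CFL1, MUS81, FIBP and DRAP1, 8 near JUNB, 4 near FOSB and 4 near JUND, and 0 near FOS, FOSL2 and JUN. The part of the neighbouring genes in these counts was not tested.

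All 36 BRD2 regions lay on H4K5acK8ac, H4K5ac and H3K27ac in both lists, as did 96.8%, 96.5% and 95.3% of the 14419 BRD2 regions called in both lists in the whole genome. H4K12ac was present in both lists at 35, against 94.0%, and H4K8ac at 28, against 71.0%. All 5 acetylations were found at 27 regions, against 69.4%. H3K27me3 or H3K9me3 was present in either list at 0, against 5.06%. H3K4me3 was present in both lists at 32 regions, against 84.4%. The other 4 had H3K4me3 in neither list and H3K4me1 in both, against 10.8%. The marks on the BRD2 regions near these genes were thus much like those on BRD2 regions in general. Of these 4, 3 lay upstream of FOSL1, at chr11:65670415-65671077, chr11:65678050-65678359 and chr11:65678908-65680844. Their BRD2 summits in replicate 1 were 2.566, 10.285 and 11.596 kb before the start, and their BRD2 fold enrichments were 2.84 and 6.36, 3.61 and 3.83, and 4.61 and 6.36 in replicates 1 and 2. The fourth, at chr1:59220872-59221367, lay 28.760 and 28.624 kb downstream of JUN, with 3.26 and 5.31.

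**Figure D4:**
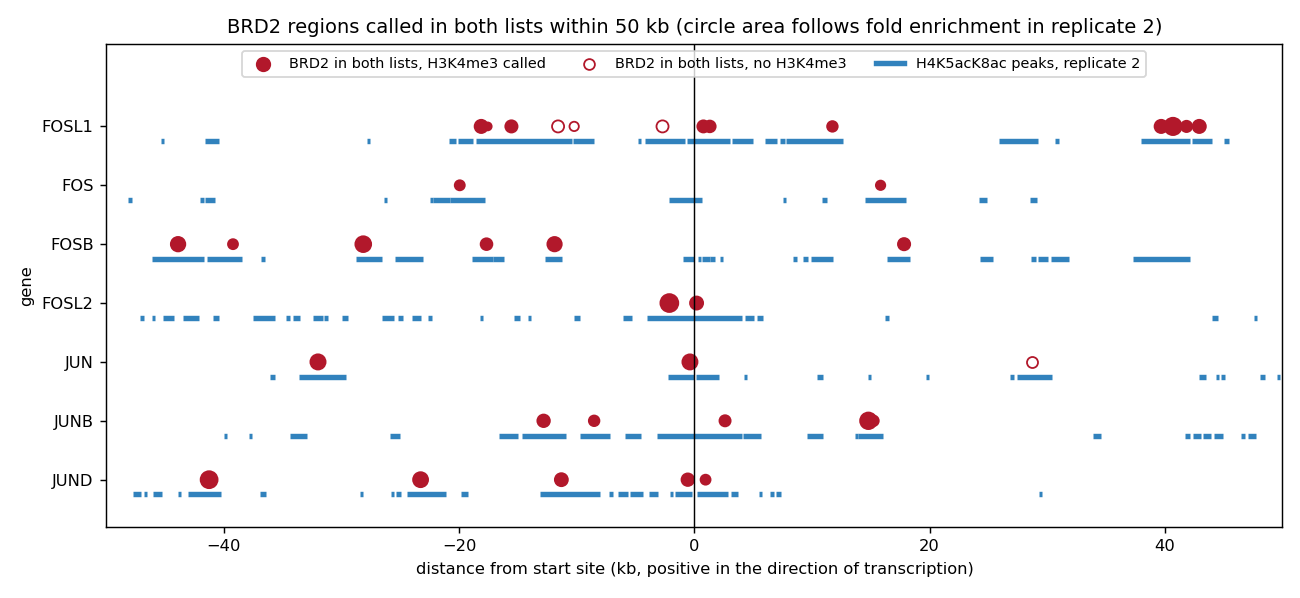
BRD2 regions called in both lists within 50 kb of each start, by distance in kb along the direction of transcription; circle area is proportional to fold enrichment in replicate 2, open circles lack H3K4me3, and bars below are H4K5acK8ac peaks of replicate 2. FOSL1 has 13 regions, and 3 of the 4 open circles lie upstream of it.

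The strongest BRD2 region of a neighbourhood was often away from the family member. JUN was the gene whose strongest region, by the mean percentile of fold enrichment over both lists, was at its own start, and FOSL2 had it 2.068 and 2.189 kb upstream. At FOSL1 it was 40.622 and 40.763 kb downstream, with fold enrichments of 6.13 and 13.1 against 3.25 and 6.44 near the start. At FOSB it was 11.959 and 11.817 kb upstream with 7.57 and 9.06, and at JUNB 14.767 and 14.825 kb downstream with 5.77 and 12.03. At JUND it was 41.270 and 41.249 kb upstream with 4.69 and 12.6, and at FOS 20.034 and 19.862 kb upstream with 4.13 and 4.43. JUN had a further region 32.446 and 31.557 kb upstream with 4.67 and 10.1, a fold enrichment like that at its start in replicate 2. All regions in this paragraph carried H3K4me3 in both lists, and which gene each belongs to was not tested.

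The share of the 50 kb windows covered by acetylation peaks gave an order unlike that of peak height. H4K5acK8ac covered 39.2% and 38.9% of the FOSL1 window, 29.5% and 32.2% at FOSB and 26.1% and 28.8% at JUNB. It covered 22.4% and 24.2% at JUND, 22.1% and 23.4% at FOSL2, 13.8% and 15.1% at JUN, and 11.8% and 14.5% at FOS. The median over H3K4me3 regions was 4.37% in replicate 1 and 4.996% in replicate 2, with upper quartiles of 9.54% and 10.8%, so all 7 windows lay above the upper quartile in both lists. FOS, with the strongest H4K5acK8ac peak at its start, had the least covered window, and FOSB, with the weakest, had the second most. JUND and FOSL2 overlapped, as did JUN and FOS. H3K27ac covered 59.1% and 56.5% at FOSL1, 57.7% and 47.8% at FOSB, 17.0% and 14.3% at FOS and 11.9% and 18.9% at JUN, against medians of 5.70% and 6.02%. FOSL1 and FOSB were thus the most H3K27ac-covered windows in both lists, while FOS and JUN changed places at the lower end. H4K8ac covered more of the FOSL2 window than of any of the other 6, 38.9% in replicate 1 and 16.6% in replicate 2, and FOSL1 came next with 37.6% and 14.8%. BRD2 covered 6.12% and 11.8% of the FOSL1 window and between 1.58% and 7.35% of the others. The covered share grows with how much of the genome a list covers. The windows of FOSL1, FOSB, JUNB and JUND hold protein-coding neighbours. FOSL2, with 0 such neighbours, was covered by H4K5acK8ac about as much as JUND and had the most H4K8ac. Whether neighbouring genes bear on coverage was not tested.

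**Figure D5:**
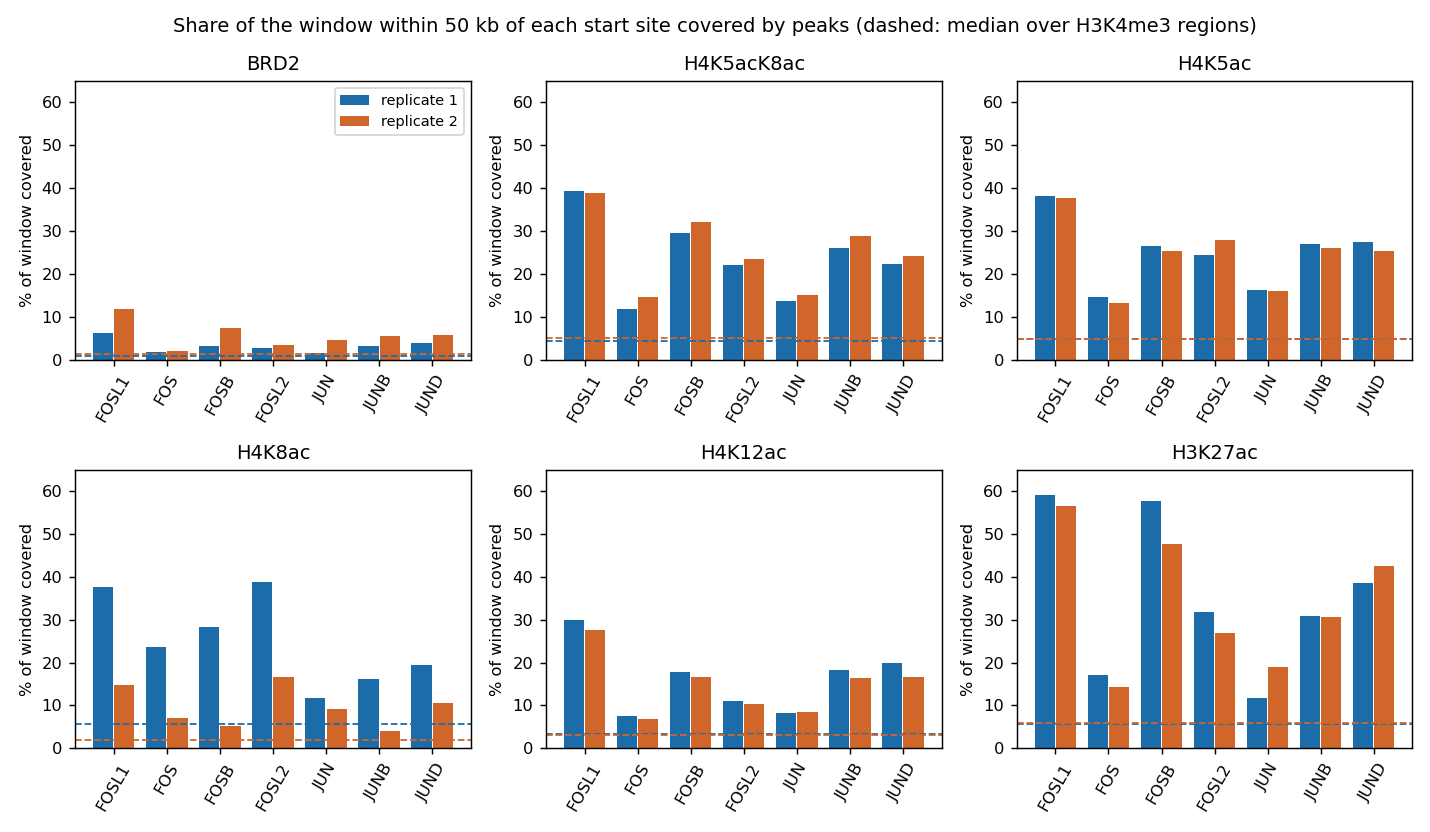
Percent of the window within 50 kb of each start covered by peaks of BRD2 and the 5 acetylations, with 1 bar per library and dashed lines at the median over 20850 H3K4me3 regions. FOSL1 has the tallest bars for each target except H4K8ac, where FOSL2 does, and FOS and JUN have the lowest for H4K5acK8ac and H3K27ac.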

How the data were processed

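ChIP-seq libraries of NCI-H23 cells were aligned to hg19 with BWA and peaks called with MACS2, per the submitters' processing notes; versions and settings are not given in the sources used here. Each library had its own deposited list. The deposited fold enrichment is a ratio to the caller's background. Significance was deposited by the authors as −log10 p and −log10 q. The last deposited column is the summit offset in bp. The deposited score was not used. The input library was not used here. For the second H3K9me3 library the title and description give different replicate numbers, and the title was followed.

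The members, lists and windows were chosen with earlier results of these data known. All 7 genes are named in each comparison, with the strongest BRD2 regions by distance. A peak counted when 1 bp lay within the window. BRD2 regions were peaks overlapping a peak of the other list by at least 1 bp, merged. The background used windows around the replicate 1 summits of H3K4me3 regions called in both lists. No test was made: genes are not replicates, and an exact permutation test of 2 lists against 2 cannot reach 0.05. The gene table and promoters are of GRCh38.p14 and served for names, strands, neighbours, lengths and sequences only; further AP-1 pathway genes and lung cell markers were not analysed here for want of hg19 starts. TGACGT was added as a motif after the sequences were seen. Python 3.11.15, numpy 2.4.6, pandas 2.3.3 and matplotlib 3.10.9 were used, and the functions were tested on simulated data. Alternatives covered the window, q, summit position, ranking and each replicate.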

Additional observations from a re-analysis of the deposited data

How the results depend on the processing

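No paired analysis was possible because no result comes from a test. At a −log10 q of at least 5, genes with BRD2 in both lists fell from 4 to 1, genes with all 5 acetylations and H3K4me3 from 4 to 2, and BRD2 regions within 50 kb from 36 to 5. The acetylation count was 7 without H4K8ac replicate 2 and between 4 and 7 when either replicate was left out. The median BRD2 percentile, taken only over genes called in both lists, was 83.3. It became 77.3 with a 500 bp window, 85.9 with 2 kb, 87.0 at a −log10 q of at least 1.3 and 92.0 at 5. At 1.3 FOSL1 was no longer called, and at 5 only JUN was. The percentiles of the genes that remained were unchanged, so these medians rose because genes dropped out. The median was 79.2 with the summit inside the window, 81.0 when ranked by −log10 q, and 60.4 among BRD2 peaks overlapping H3K4me3. With 1 replicate left out, which also changed the genes called, it was between 80.1 and 82.6. Around the H3K4me3 summit in place of the start, an alternative chosen after seeing the data like the one without H4K8ac replicate 2, it was 72.3 and the acetylation count was 2. BRD2 regions numbered 58 within 100 kb, and a single list held between 70 and 75 within 50 kb, unmatched to the other list. The median H4K5acK8ac coverage of 23.3% was 26.4% within 25 kb, 18.5% within 100 kb, 20.2% at a −log10 q of at least 5 and between 22.4% and 24.2% with 1 replicate left out. Genes with a response element rose from 3 to 5 when TGACGT was added. The causes of the other changes were not tested. Smaller shifts included 4 to 6 genes with BRD2 without replicate 1, 4 to 6 genes with all 5 acetylations at 2 kb, 36 BRD2 regions to 24 with −log10 q held to 1.3 or more and to 26 within 25 kb, and 47 gene and target pairs to 33 with the summit inside the window. Unknown read depth limits every comparison between lists; strong peaks also differed between the libraries of H3K4me1, 50299 and 125098.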
